A study of Drosophila melanogaster with 2 samples.

Results

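The comparison described here sets RNA of the larval salivary gland against RNA of brain-disc complexes of *Drosophila melanogaster* on a 2-colour oligonucleotide array. It covers every array probe with a salivary gland value, 8026 of the 14532 probes in the table (55.2%), whether or not the fat body column of the same table has a value for it. A further 6506 probes were listed without a salivary gland value. Of the probes described, 4391 (54.7%) also had a fat body value and 3635 (45.3%) did not.

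The salivary glands and the brain-disc complexes were both dissected by hand from larvae of the strain yw67c23, labelled wild-type, in the feeding stage of instar 3, between 70 and 75 hours after egg laying. Salivary gland RNA, from tissue labelled as endocycling, carried Cy3, and RNA of brain-disc complexes, labelled as mitotically cycling, carried Cy5. The fat body column was made in the same way against brain-disc complexes. The salivary gland column is the authors' average over 3 biological replicates and the fat body column is their average over 2, per the labels. The values of single replicates were not analysed here, so no probe carries a standard deviation or a p-value, and a difference could not be set against the spread between replicates. Brain-disc complexes hold several tissues, and a level per cell cannot be told apart from the share of cells of each type in either sample.

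In the endocycle, a cell alternates rounds of DNA synthesis with gap phases and skips mitosis, so that its chromosomes are copied again and again in 1 nucleus. The cells of the larval salivary gland follow this programme to very high ploidy and hold giant polytene chromosomes. The gland secretes glycoproteins, among them the glue that later fixes the pupa to its support. Imaginal discs, the epithelial sacs that become wings, legs and eyes, and the proliferating zones of the larval brain grow by division instead. In the published account of this work, endocycling tissues are described by lowered expression of cell cycle genes under the control of the E2F and Myb transcription factors. No probe could be tied to such a gene here. The RefSeq gene table lists 17872 genes, and 0 of the 14532 probe IDs matched any of its identifiers, symbols, synonyms or accessions, so values are given for probes and no gene, gene group or tissue marker could be checked, the labelled tissues included.

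The values were read as log2 ratios, since neither base nor sign is stated in the sources used here. The order of tissues in the title would put the salivary gland in the numerator, whereas the scanner software commonly writes Cy5 over Cy3, which would put brain-disc there. The sign is therefore given as positive or negative and no tissue is called the higher. The zero point is unknown as well. The median of the column was -0.22, with quartiles of -1.24 and 0.89, and 56.0% of the values lay below 0. The middle 98% of the values ran from -4.29 to 5.29.

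Most deposited values were 1 or more in size, which is 2-fold or more if they are log2 ratios. How many of them are differences between the tissues was not tested. Values of 1 or more, which are 2-fold or more on the positive side, were found for 1832 of 8026 probes (22.8%). Values of -1 or less were found for 2440 (30.4%). The other 3754 probes (46.8%) lay within 2-fold. The positive and negative sides were unlike in shape. Moderate differences were more often negative and very large ones more often positive. Between 2-fold and 4-fold there were 941 positive and 1431 negative probes, a positive share of 39.7%. Between 4-fold and 8-fold the counts were 403 and 638 (38.7% positive). Between 8-fold and 16-fold they were 221 and 262 (45.8%). From 16-fold to 64-fold the order was turned, with 234 positive and 98 negative probes (70.5%). At 64-fold or more there were 33 positive and 11 negative probes (75.0%).

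The positive excess at large sizes was also present when the zero was moved to the median of the column. The negative excess at moderate sizes became small. The positive share was then 48.5% between 2-fold and 4-fold, 48.5% between 4-fold and 8-fold, 54.1% between 8-fold and 16-fold, and 76.9% at 16-fold or more. With that zero, positive probes past 2-fold outnumbered negative ones, 2183 against 2040, so which side held more probes overall depended on a zero point that is not stated. At 16-fold or more, positive probes were the more frequent with either zero, 267 against 109 as deposited and 299 against 90 after centring.

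The last digits of a value were read as telling how many of the 3 replicates it averages. All array counts below rest on this reading, which was assumed. A value from 1 array was taken to have 3 decimals. A mean of 3 such values ends in a repeating 3 or 6 unless their sum divides evenly, so about 2 in 3 of these means can be recognised. A mean of 2 ends in an added 5 for about 1 in 2. In the salivary gland column, 2613 values were recognised as means of 3 and 1090 as means of 2, and 4322 had 3 decimals or fewer. The remaining value, 7.85, had 9 decimals and fitted none of these forms. Scaled up, 48.8% ± 0.55 of the values (standard error of the digit count) were means of 3, 27.2% were means of 2 and 24.0% ± 0.80 came from a single array.

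Support differed between the sides. Among values of 1 or more, an estimated 32.5% ± 1.6 came from a single array, and among values of -1 or less 18.3% ± 1.5 did, a difference of 14.2 percentage points with a standard error of 2.2. The gap was wider just past the 2-fold line. From 1 to 2 the estimated single-array share was 39.7% ± 2.1, and from -2 to -1 it was 15.1% ± 2.0. These were the highest and the lowest shares among all size classes from -6 to 6. Further out on the positive side the share was 26.9% ± 3.5 from 2 to 3, 21.9% ± 4.9 from 3 to 4 and 23.7% ± 4.7 from 4 to 6. On the negative side it was 18.3% ± 2.9 from -3 to -2, 29.0% ± 4.3 from -4 to -3 and 28.6% ± 7.4 from -6 to -4. Between -1 and 1 the 4 classes ran from 21.7% to 27.4%. By the share of means of 3 the order was in part another, with 36.7% ± 4.3 from -6 to -4, 41.1% ± 1.5 from 1 to 2 and 55.2% ± 1.4 from -2 to -1.

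Over the whole column, the balance of signs differed between kinds of value. The recognised means of 3 held 548 positive and 857 negative probes past 2-fold (39.0% positive), and the recognised means of 2 held 207 and 354 (36.9%). The estimated single-array values held 596 ± 29 positive and 446.5 ± 37 negative probes (57.2%). Put as a share of each kind, 21.0% of recognised means of 3 were at or above 1 and 32.8% at or below -1, while an estimated 30.9% of single-array values were at or above 1 and 23.2% at or below -1. Between means of 3 and single-array values, the estimated shares lay closer once probes were divided by whether they had a fat body value. With a fat body value, estimated positive shares past 2-fold were 31.5% for means of 3 and 32.0% for single-array values. The latter share rests on 53 ± 20 positive and 112.5 ± 31 negative probes. It is too imprecise to tell whether the 2 kinds differ there. Without one, the shares were 65.0% for means of 3 and 61.9% for single-array values, the latter from 543 ± 20 positive and 334 ± 20 negative probes. Means of 2 were at 30.0% with a fat body value. Without one they were at 43.2%, below both other kinds and mostly negative. The median of the recognised means of 3 was -0.30 and that of the recognised means of 2 was -0.35.

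The change of sides with size was also present in values whose digits were read as a mean of all 3 replicates. Among recognised means of 3, the positive share was 32.9% between 2-fold and 4-fold (258 against 527 probes), 36.8% between 4-fold and 8-fold (131 against 225), 47.0% between 8-fold and 16-fold (71 against 80) and 77.9% at 16-fold or more (88 against 25). It rose from class to class. The recognised means of 3 reached from -6.43 to 10.3, with a 5th percentile of -2.87 and a 95th of 3.34, close to the -2.96 and 3.31 of the whole column.

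Among the lowest values, which were few, a smaller share was recognised as means than in the column as a whole. The highest were too few to tell whether their support differed from that of the column. The highest value of all, 17.2, and the next, 11.1, both had 3 decimals. The first of these is the only value in the column whose size passes 16, the full range in log2 of a scanner of 16 bits. Among the 10 highest values, from 7.42 to 17.2, 3 were recognised means of 3 and 6 had 3 decimals, where the whole column held 32.6% and 53.9%. Among the 10 lowest, from -9.51 to -6.30, 1 was a recognised mean of 3 and 9 had 3 decimals. Of the 11 values of -6 or less, 1 was a recognised mean of 3, 0 were recognised means of 2 and 10 had 3 decimals. By the same scaling, an estimated 9.5 came from a single array, a rough figure from so few values. At 6 or more, 9 of 33 values were recognised means of 3. An estimated 28.8% ± 12.4 came from 1 array, with the value of 9 decimals counted there, against 24.0% in the whole column.

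The most extreme probes are named here among the recognised means of 3 only. A mean of 3 that came out even has 3 decimals and was not recognised, so more extreme means of 3 may exist. On the positive side the named probes were DAC032G23, with a log2 ratio of 10.3 in the salivary gland column, and DAC009M01, with 8.91. On the negative side they were DAC019N19, with -6.43, and DAC038C11, with -5.49. All 4 also had a fat body value. The fat body column, which shares the brain-disc comparator, listed DAC032G23 at 7.46, DAC009M01 at 3.03, and both DAC019N19 and DAC038C11 at -8.97. The fat body values of DAC019N19 and DAC038C11 were exactly equal, at -8.966. That was also the lowest fat body value among the 10 lowest recognised means of 3. Whether this shared value was measured for each probe was not tested. The 10 highest recognised means of 3 lay between 5.89 and 10.3, and 5 of them had a fat body value. The 10 lowest lay between -6.43 and -4.78, and 9 of them had one.

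Whether a probe also had a fat body value went with both sign and support. A fat body value was present for 67.7% of the probes from -3 to -2 and 65.6% of those from -2 to -1. It was 66.0% from -4 to -3, 59.2% from -6 to -4 and 45.5% of the 11 values of -6 or less. Towards the positive side the share fell to 59.9% just below 0, 50.1% from 0 to 0.5 and 39.5% from 1 to 2, and lay between 38.0% and 43.4% in all classes above that. Probes with a fat body value were well supported: an estimated 70.2% ± 0.89 of their salivary gland values were means of 3, against 23.1% ± 0.56 of those without one. Among probes with a fat body value, the estimated single-array share at 2-fold or more was 7.3% ± 2.8 on the positive side and 7.0% ± 1.9 on the negative side, a difference of 0.27 percentage points with a standard error of 3.4. Among probes without one it was 49.2% ± 1.8 and 40.1% ± 2.5, a difference of 9.13 points with a standard error of 3.1. Just past the 2-fold line, from 1 to 2, it was 59.0% ± 2.3 in probes without a fat body value, against 39.8% ± 3.2 from -2 to -1. The corresponding shares in probes with one were 10.3% ± 3.8 and 2.2% ± 2.5.

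The balance of signs also differed between these probes where support was the same. Among recognised means of 3 with a fat body value, 344 were at or above 1 and 747 at or below -1 (31.5% positive), with a median of -0.49 over 2054 probes. Among recognised means of 3 without a fat body value, 204 were at or above 1 and 110 at or below -1 (65.0% positive), with a median of 0.38 over 559 probes. At 16-fold or more, the probes with a fat body value held 44 positive and 19 negative recognised means of 3, and those without held 44 and 6. Recognised means of 3 missing from the fat body column were thus mostly positive past 2-fold, and those with values in both columns mostly negative. The sources used here do not name the filter that made a value missing, and its part in this result was not tested.

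Values and support both went with the place of a probe on its source plate. Each ID was read, from its form alone, as a plate, then a row by letter and a column by number. Columns 13 to 24 were folded onto 1 to 12, since they ran alike. The medians of paired columns lay within 0.19 of each other, and position 3 had the lowest median in both runs. At positions 2 to 10, between 48.6% and 57.4% of the values were estimated means of 3. At position 1 the share was 37.8% ± 1.7, at position 11 it was 45.7% ± 1.7 and at position 12 it was 26.5% ± 1.3. Position 12 also had the highest median, 0.43, the most values per probe, 72.1%, and the smallest share at or below -1, 14.5%. Its values were thus more numerous, less replicated and more positive than elsewhere. Fewer of its 1168 probes gave a mean of 3 than at any other position, 19.1% by estimate, although position 1 was near it with 19.9%.

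The course of the medians over positions was kept in part in the recognised means of 3. Position 3 again had the lowest median, -0.58, and position 12 the highest, 0.23. Position 11, at 0.12 over all values, was at -0.20 in the recognised means of 3, just below position 10 at -0.17, and position 5, at -0.23, lay above positions 6 to 9. Of the recognised means of 3, 20.1% were at or below -1 at position 12 against 36.8% at position 3. Restricted to recognised means of 3 that also had a fat body value, position 12 still had the highest median, 0.17 from 77 probes, and positions 1 to 3 had the lowest, between -0.69 and -0.68. The part of this pattern in the values of single probes was not tested. The gap in support between the sides was also found at positions 2 to 10 taken alone, where the estimated single-array share was 28.9% ± 1.9 among values of 1 or more and 17.0% ± 1.7 among values of -1 or less.

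The 38 source plates with at least 370 probes varied in the same measures. Between 41.5% and 69.0% of their probes had a value, with a median over plates of 54.9%. The plate medians of the values ran from -0.68 to 0.42, and 7 of the 38 were above 0. Negative probes past 2-fold outnumbered positive ones on 30 plates and positive ones did on 8. The share at or above 1 ran from 14.8% to 33.1% and the share at or below -1 from 20.0% to 39.8%. The estimated share of means of 3 ran from 34.1% to 64.0% between plates. The IDs, read in the same way, give 3 smaller plates, and 2 of them had few values past 2-fold. Plate 002, with 42 probes, had 33 values between -1.38 and 1.26, of which 1 was at or above 1 and 1 at or below -1. Plate c01, with 48 probes, had 41 salivary gland values, all between -0.94 and 0.59, so 0 passed 2-fold in either direction. Of the values of plate c01, 0 were recognised means of 3, 8 were recognised means of 2, and 0 had a fat body value. Plate 041, with 96 probes and 55 values, held 14 values at or above 1 and 22 at or below -1.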

How the data were processed

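The deposited table holds 1 log ratio per probe and tissue comparison, read here as log2, which the authors averaged over biological replicates, per the labels. Slides were read with a GenePix 4100A scanner and GenePix Pro 5, per the series' design text. The sources used here do not give the background correction, normalization, filter, log base or direction. Both columns carry dye and tissue together, so a dye effect and a tissue difference cannot be told apart. Values were used as deposited, and counts used a threshold of 2-fold (1 on the log2 scale).

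Last digits were classed within 5e-07 of a pattern. Means of 3 were estimated as 1.5 times and means of 2 as 2 times the recognised number, with the rest as single arrays. This scaling was checked on simulated data in which single values had 3 decimals by construction. Such data cannot show whether the deposited single-array values have 3 decimals. Standard errors cover the digit count only. With averages alone, no test was made and the number of arrays limits the precision.

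The named probes are the 2 highest and 2 lowest recognised means of 3. The members, rule and alternatives were chosen with earlier results of these data known. The gene lists and marker lists drawn up for cell cycle, apoptosis, secretion, growth and cell types could not be applied, because no probe has a gene name here. Python 3.11.15, pandas 2.3.3 and numpy 2.4.6 were used.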

Additional observations from a re-analysis of the deposited data

How the results depend on the processing

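No paired analysis was possible because the replicates of a comparison come as 1 average, and none could be left out. The other settings that had been listed gave 18 values, of which 8 counts were less than 1.5 times apart from those reported. At 3-fold the counts were 1174 positive and 1466 negative. Recognised means of 3 gave 548 and 857, recognised means of 2 or 3 gave 755 and 1211, and probes with a fat body value gave 729 and 1607, all from fewer probes. The median was -0.30 in recognised means of 3 and -0.52 with a fat body value, and -0.35 at positions 2 to 10, a setting chosen after seeing the data. In the 3635 probes without a fat body value, also chosen after seeing the data, the median turned to 0.20, with 1103 positive and 833 negative probes. Over all settings, negative probes made up 43.0% to 68.8% of those past the threshold of the setting, which was 2-fold except in the settings of 1.5-fold and 3-fold. Positive probes were the more frequent in probes without a fat body value (43.0% negative) and after centring on the column median (48.3% negative), and in no other setting run. The gene list settings were not run, since no probe has a gene name here.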

Other observations

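The row letters of the probe IDs went less clearly with the values than the column positions did. The 16 row medians ran from -0.46 in rows B and O to -0.01 in row H, and the estimated share of means of 3 ran from 39.9% in row J to 57.7% in row P. The most frequent salivary gland value of size 4 or more was -4.29, which 4 probes shared exactly. The most frequent value of any size was shared by 7. Why 4 probes share so large a value was not tested.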
